A study of Drosophila melanogaster with 12 samples.

Results

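The genes described here are the CR-named RNA genes of the fly, whose symbol is CR and a number, the naming that the fly gene catalogue gives to annotated genes without a recognized protein. They were chosen from the measured values. A gene was a member if its mean was at least 5 CPM (counts scaled to a common library total) in at least 1 of the groups of libraries, which gave 83 members of the 1765 CR-named rows in a table of 15423 rows. Heads of flies 3 to 6 days after eclosion were profiled by 3' digital gene expression, in which reads come from the 3' ends of polyadenylated RNA. The 4 groups were WT flies at 18°C, ADAR hypomorph flies at 18°C, WT flies at 29°C and ADAR hypomorph flies at 29°C, with 3 libraries each. The study describes the hypomorph as carrying a transposon inserted in an intron of Adar. Its methods name the strain Adar5G1, but its discussion sets ADAR5G1 flies apart from the hypomorph, so the allele is not clear. It is 1 mutant strain in 1 strain background, and any other difference between the strains cannot be told apart from the change in Adar. The comparisons ask how the heads respond to temperature in each strain and how the strains differ at each temperature.

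Long noncoding RNAs are transcribed, capped and often polyadenylated like mRNAs but carry no long conserved reading frame, and some act at chromatin, in splicing or as precursors of small RNAs. Antisense RNAs are copied from the strand opposite to another gene and can form a duplex with its transcript. ADAR deaminates adenosine to inosine in double-stranded RNA, and in flies it acts mainly in the nervous system.

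Total counts ran from 4409119 to 8806472 per library. In each group 1 library has no replicate number and is called the unnumbered library, and the others are replicates 2 and 3. The labels do not say that the libraries came from separate cultures, so the p-values measure the spread between these libraries, which may be technical. Adar itself was at 40.1, 40.9 and 35.2 CPM in WT and 37.6, 22.5 and 28.0 CPM in the hypomorph at 18°C, and at 37.2, 39.5 and 42.2 against 24.6, 23.5 and 21.6 CPM at 29°C. In these values, scaled by TMM as explained below, the unnumbered 18°C hypomorph library lay within the WT range. The call at 18°C (log2 fold change −0.41, SE 0.14, adjusted p = 0.0424) was lost when any of 8 libraries was left out, with values of −0.41 to −0.25. At 29°C the difference was −0.77 (SE 0.14, adjusted p = 0.000858). Counts at the 3' end do not measure editing. WT replicate 2 at 29°C stood apart, with a count in 816 CR-named rows against 516 to 709 in the other libraries, and with summed gut markers of 473.7 CPM against 5.65 and 11.4 in the other 29°C WT libraries.

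Markers of the head were present in all libraries. The 4 photoreceptor markers summed to 5815 to 32347 CPM and the 4 neuronal markers to 348.9 to 543.3 CPM. The summed ovary markers reached at most 8.91 CPM in a library. The testis markers reached 23.0 CPM in WT replicate 2 at 29°C, against 2.19 and 0.361 CPM in the other 29°C WT libraries. The strains differed in several of these lists. The photoreceptor sum was 5815 to 6479 CPM in WT against 22175 to 22622 CPM in the hypomorph at 18°C, and 9805 to 10743 against 30269.9 to 32347 CPM at 29°C, with 4 of 4 markers higher in the hypomorph at both temperatures. The sum of 6 head fat body markers was 97163 to 105531 against 20654 to 31879 CPM at 18°C, with 6 of 6 lower in the hypomorph. At 29°C it was 79546 to 83358 against 44734 to 51785 CPM, with 3 of 6 lower. Those 3 were the yolk protein genes Yp1, Yp2 and Yp3, which held most of the sum. Lsp2 (log2 fold change −0.22), Fbp1 (1.99) and Fbp2 (2.01) were not called between the strains at 29°C. In bulk heads, fewer cells of a type and less RNA per cell cannot be told apart. Nor can the part of sex, which the labels do not give. The part of these shifts in the results on the CR-named genes was not tested.

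Of the 83 members, 45 reached 5 CPM in all 4 groups, 7 in 3, 17 in 2 and 14 in 1. All 83 passed the filter on low counts, which kept 228 of the 1765 CR-named rows and 9553 rows in all. For 65 members the mean over all 12 libraries was also at least 5 CPM, a limit that favours no single group, and counts of calls and tests are given for these. Of the 65, 20 were under 5 CPM in at least 1 group, so a share of them came in through the groups in which they are high. Where a group in a comparison was under 5 CPM, the difference of such a member is therefore given as a description with no test. The remaining 18 members are described by their values without a test. Just inside the rule were CR45352, with 5.13 CPM in its highest group, and CR44898 with 5.29 CPM, and just outside were CR44702 with 4.95 CPM in the 18°C hypomorph and CR42860 with 4.95 CPM in the 29°C WT group.

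The members were matched by symbol to the Release 6 gene annotation, which matched 82 of the 83. It lists 56 of them as lncRNA, 21 as antisense RNA and 5 as protein coding genes that have since been renamed, among them CR43051 (now CG43051), CR45045 (now CG45045), CR45273 (now CG45273), CR44388 (now CG44388) and CR44404 (now IBIN, a gene for a small peptide induced on infection). CR46201, on chromosome 4, had no match. By the deposited table, 20 members lie on chromosome arm 3R, 18 on X, 17 on 2R, 11 on 3L, 10 on 2L and 4 on chromosome 4. The small chromosome 4 held 4.82% of the members but 1.25% of all CR-named rows. The members' positions are not printed because the table gives none and the annotation is of another build.

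**Figure D1:**
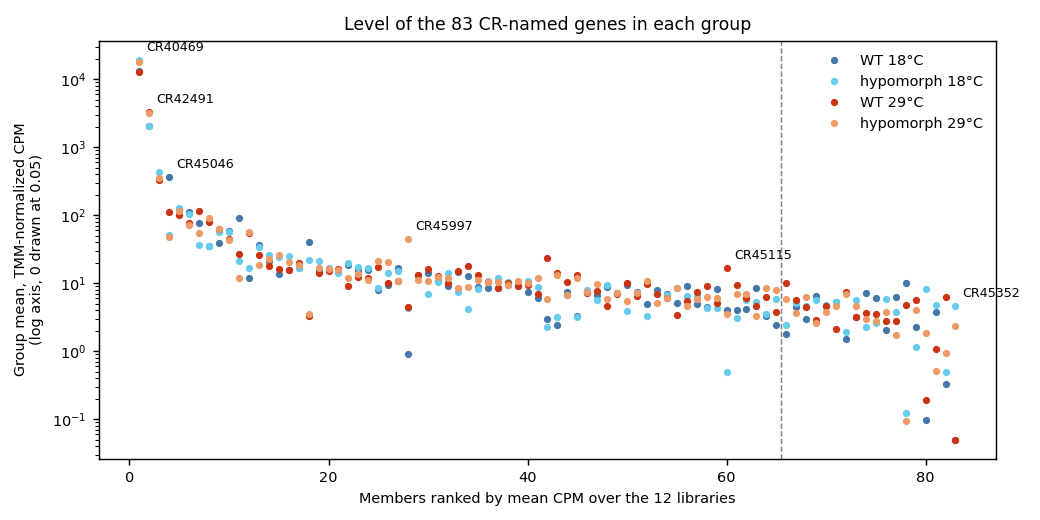
Mean level of each of the 83 CR-named genes in each group, as TMM-normalized CPM on a log axis, with the members ranked by their mean CPM over the 12 libraries and means of 0 drawn at 0.05. Each point is the mean of 3 libraries and the dashed line separates the 65 members with a mean of at least 5 CPM from the other 18. CR40469 stood above all other members in every group.

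The CPM of Adar and of the markers above, and all CPM values from here on, are normalized by TMM. This scaling corrects for differences in composition between libraries. Limits in CPM, such as that of the rule for members, use library totals. The CR-named rows took 1.71% ± 0.18 (SD, n = 3) of the counts in WT and 2.61% ± 0.084 in the hypomorph at 18°C, and 1.73% ± 0.055 against 2.29% ± 0.083 at 29°C. Nearly all of that came from the members, which held 97.1% to 98.4% of the counts of CR-named rows in each library. A single member, CR40469, held 69.5% to 83.7% of them. The summed level of all CR-named rows was 1.34-fold higher in the hypomorph at 18°C and 1.28-fold higher at 29°C, in both cases without overlap between the groups. The exact permutation test gave p = 0.1 for each, the smallest that 3 libraries against 3 can give. Temperature changed the sum by a factor of 1.05 in WT and 1.00 in the hypomorph by TMM, with overlapping groups (exact permutation p = 0.5 and 1). By total counts the factor was 1.01 in WT, with overlap, and 0.879 in the hypomorph, without overlap (exact permutation p = 0.8 and 0.1).

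CR40469, an lncRNA gene on the X chromosome, decided these sums. Its level was 11523, 15023 and 12962 CPM in WT and 18310.1, 19336 and 20576 CPM in the hypomorph at 18°C. At 29°C it was 12766, 12745 and 13265 CPM in WT and 18300.0, 17449 and 18972 CPM in the hypomorph. Every hypomorph library was above every WT library at either temperature, and by TMM the 18°C and 29°C libraries of a strain overlapped. As a share of total counts the hypomorph libraries did not overlap, at 2.13%, 2.09% and 2.26% at 18°C and 1.78%, 1.71% and 1.86% at 29°C. In WT, CR40469 overlapped between the temperatures by either scaling. By the quasi-likelihood test of edgeR, with p-values adjusted over the 9553 rows tested by the Benjamini-Hochberg method, it rose in the hypomorph by 0.56 on the log2 scale at 18°C (SE 0.08, adjusted p = 5.23e-05) and by 0.50 at 29°C (SE 0.08, adjusted p = 0.000207). Its temperature difference was −0.03 in WT (adjusted p = 0.826) and −0.09 in the hypomorph (adjusted p = 0.404). Without CR40469 the direction between the strains depended on the scaling. The summed level in the hypomorph was 0.930 of WT at 18°C (exact permutation p = 0.1) and 0.961 at 29°C (p = 0.3) by TMM, but 1.06 (p = 0.1) and 0.998 (p = 1) scaled by total counts. By TMM it was 1.25-fold and 1.29-fold higher at 29°C than at 18°C (exact permutation p = 0.1 each).

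The second member by counts, CR42491, carried that temperature difference. It was at 2008, 2219 and 2033 CPM in WT and 1861, 2250 and 2102 CPM in the hypomorph at 18°C, and at 3079, 3429 and 3435 CPM against 3167, 3260 and 3226 CPM at 29°C. All 6 libraries at 29°C were above all 6 at 18°C, and the strains overlapped at each temperature. The rise was 0.67 on the log2 scale in WT (SE 0.07, adjusted p = 2.81e-06) and 0.64 in the hypomorph (SE 0.07, adjusted p = 4.63e-06). With both genes left out, the summed level at 29°C over that at 18°C was 0.941 in WT and 1.02 in the hypomorph.

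**Figure D2:**
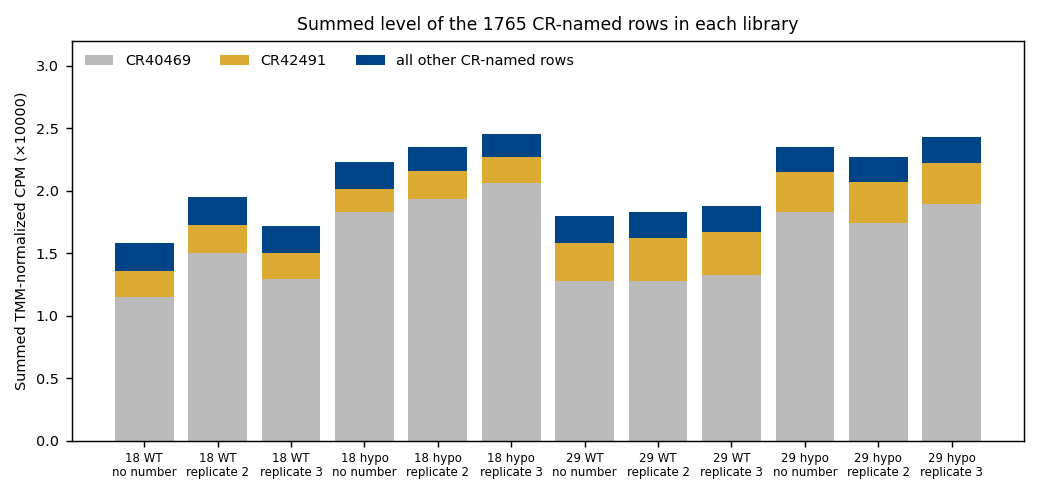
Summed TMM-normalized CPM of the 1765 CR-named rows in each of the 12 libraries, split into CR40469, CR42491 and all other CR-named rows. The height of a bar follows CR40469, which is higher in the 6 hypomorph libraries, and the layer of CR42491 is thicker in the 6 libraries at 29°C.

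CR42491 lies on the same strand as RpL22, which encodes a protein of the large ribosomal subunit, and the counts of both genes were nearly the same. In every library CR42491 had 96.2 to 97.2 counts for each 100 counts of RpL22. Over all overlaps on the same strand, 22 pairs formed by 21 of the 65 members, 5 pairs had log2 fold changes that lay within 0.05 of each other in all 4 comparisons. The other 4 were CR44097 with CG6000 (99.4 to 100 counts per 100), CR45184 with CG13900 (97.7 to 100), CR43836 with CG10962 (98.1 to 102) and CR45046 with fit (26.6 to 29.7). Of 26 pairs on opposite strands, formed by 23 members, none did. How reads of overlapping genes on the same strand were divided is not given in the sources used here, so the values of these 5 members and of their partners cannot be told apart. The limit of 0.05 was a choice. CR32194 with CG34253 had 95.1 to 109 counts per 100 but a widest gap of 0.14, and members outside the limit may share reads too.

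**Figure D3:**
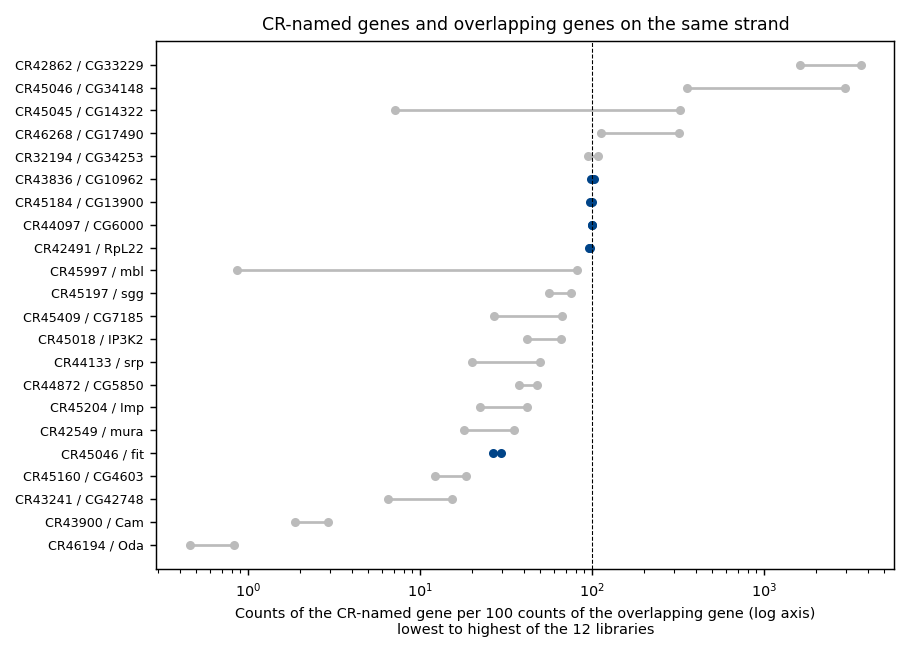
Counts of a CR-named gene per 100 counts of an overlapping gene on the same strand, on a log axis, for the 22 pairs of members with a mean of at least 5 CPM. Each line runs from the lowest to the highest of the 12 libraries, the 5 pairs with log2 fold changes within 0.05 of each other are blue, the others are grey, and the dashed line marks equal counts. The blue lines are short, while that of CR45997 and mbl runs from 0.866 to 82.1.

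Of the 65 members, 17 rose and 13 fell from 18°C to 29°C in WT, or 46.2%, where 33.4% of all rows tested were called (16.1% up and 17.3% down) and 36.7% of the rows at that level. In the hypomorph 17 rose and 10 fell, or 41.5%, against 32.2% of all rows (15.6% up and 16.6% down) and 35.7% of the rows at that level. Between the strains, 12 members rose and 10 fell in the hypomorph at 18°C, or 33.8% against 26.2% (11.6% up and 14.6% down) and 29.5%. At 29°C 8 rose and 10 fell, or 27.7% against 19.0% (8.81% up and 10.2% down) and 21.1%. By the criterion of the study's methods, read here as a log2 fold change beyond 1 with an unadjusted p under 0.05, 14, 12, 9 and 9 of the 65 passed in these comparisons, beside 7.33%, 6.16%, 5.51% and 4.72% of all rows. Of the 7860 rows at that level, 371, 289, 292 and 243 passed. The members' median log2 fold changes were 0.10, −0.00, −0.00 and 0.02 in that order, near the medians over all rows tested of 0.01, −0.01, 0.01 and −0.00. Of all 228 CR-named rows tested, 31.1%, 31.1%, 19.3% and 16.2% were called, below the shares of all rows. Their median level was 2.27 CPM by library totals, against 18.2 CPM over all rows tested. By the study's criterion, however, 60, 63, 40 and 37 of the 228 passed, beside 700, 588, 526 and 451 of all 9553 rows. The place of the CR-named genes relative to the background thus changed with the level at which they were counted and with the criterion. These differences in share were not tested, and the calls of the 65 include those of members that the limit took in through their higher groups. Of the 65, 19 were called in no comparison. Scaled by total counts, which shifts the median of all genes by −0.19 for temperature in the hypomorph and by 0.19 for strain at 18°C, the splits were 14 up and 19 down for the first and 20 up and 9 down for the second.

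The temperature comparisons share no library with each other. Of the 30 members called in WT and the 27 called in the hypomorph, 22 were called in both (73.3% and 81.5%), and all 22 had the same direction. Of all rows at that level, 65.3% and 67.0% of the calls were shared, 1855 of 1882 in the same direction. Between the strains, 13 of the 22 members called at 18°C and of the 18 called at 29°C were shared (59.1% and 72.2%), all in the same direction, where over all rows 51.0% and 71.3% were shared.

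**Figure D4:**
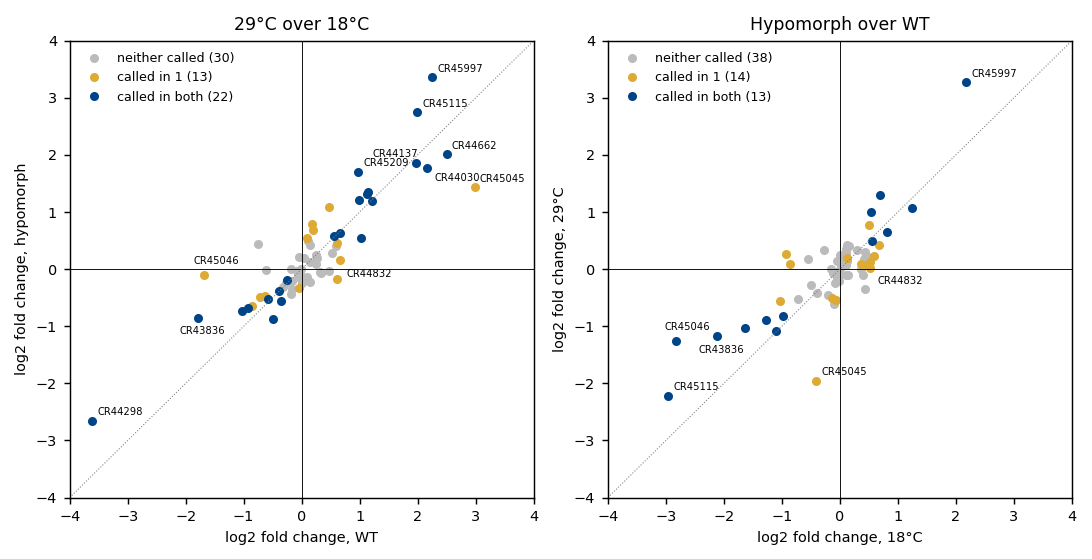
Log2 fold changes of the 65 members with a mean of at least 5 CPM, at left 29°C over 18°C in WT (horizontal) and in the hypomorph (vertical), and at right hypomorph over WT at 18°C (horizontal) and 29°C (vertical). Points are colored by whether a member was called in both comparisons, in 1 or in neither, the dotted line marks equal change, and the 22 members at left and 13 at right called in both lie in the quadrants of equal direction.

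The members higher at 29°C included several with low levels at 18°C. CR44030, an antisense RNA gene on chromosome 4, was at 10.1, 11.5 and 14.4 CPM in WT and 17.9, 16.4 and 16.2 CPM in the hypomorph at 18°C, and at 52.8, 50.5 and 59.8 CPM against 50.5, 62.9 and 57.7 CPM at 29°C. All 29°C libraries were above all 18°C libraries, and the rises were 2.16 on the log2 scale in WT (SE 0.13, adjusted p = 8.68e-09) and 1.76 in the hypomorph (SE 0.12, adjusted p = 4.06e-08). It lies opposite to fuss, a gene of the Ski and Sno family of transcriptional regulators, which was at 0.893 to 1.58 CPM in the 4 groups and was not called. CR44662, an lncRNA gene on X, was at 1.53, 2.74 and 2.91 CPM in WT and 2.15, 2.36 and 4.91 CPM in the hypomorph at 18°C, and at 12.2, 14.4 and 15.3 CPM against 14.2, 12.9 and 12.2 CPM at 29°C. The 29°C libraries lay above the 18°C libraries in both strains, with log2 fold changes of 2.50 (SE 0.27) and 2.01 (SE 0.25), a description because the 29°C groups brought it in.

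CR44137 is an antisense RNA gene opposite to Csk, the kinase that holds Src kinases inactive. It was at 3.51, 2.55 and 3.93 CPM in WT and 2.34, 4.60 and 2.58 CPM in the hypomorph at 18°C, and at 13.1, 14.7 and 11.9 CPM against 11.5, 10.1 and 14.1 CPM at 29°C. It too came in through its 29°C groups, and its log2 fold changes of 1.97 (SE 0.24) and 1.87 (SE 0.24) stood beside log2 fold changes of Csk of 0.15 and 0.07, neither called. CR31781, an lncRNA gene on 2L, rose from 32.7, 39.0 and 34.6 CPM to 78.8, 77.3 and 80.1 CPM in WT and from 33.9, 35.4 and 36.6 CPM to 90.0, 89.3 and 89.9 CPM in the hypomorph. Its log2 fold changes of 1.15 (SE 0.08, adjusted p = 2.55e-08) and 1.34 (SE 0.07, adjusted p = 5.09e-09) came without overlap between the temperatures. CR44417 also rose in both strains (1.12 and 1.32). CR42868 (1.21 and 1.19), CR45209 (0.98 and 1.71) and CR45251 (0.98 and 1.22) were under 5 CPM in both 18°C groups, and these log2 fold changes are a description.

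CR44298 was far lower at 29°C than at 18°C. It was at 40.3, 38.3 and 41.7 CPM in WT and 20.9, 25.8 and 19.6 CPM in the hypomorph at 18°C, and at 2.66, 4.39 and 2.77 CPM against 5.23, 2.21 and 3.19 CPM at 29°C. All 29°C libraries were below all 18°C libraries, with a 12.3-fold lower mean in WT (log2 fold change −3.61, SE 0.23) and a 6.24-fold lower mean in the hypomorph (−2.66, SE 0.23), given without a test because both 29°C groups were under the limit. The strains differed at 18°C, where the hypomorph was lower (−0.86, SE 0.19, adjusted p = 0.00279), but overlapped at 29°C. This lncRNA gene on 2R lies opposite to magu, which encodes a secreted protein and rose by 0.66 in WT (adjusted p = 8.95e-05) and 0.30 in the hypomorph (adjusted p = 0.0266). Over the 12 libraries the rows most like it in log2(CPM + 1) were CG4872 (Pearson r = 0.989), SERCA, the calcium pump of the endoplasmic and sarcoplasmic reticulum (r = 0.986), and CG32425 (r = 0.986), a description over libraries that share the group structure.

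Smaller falls were seen for members that lie within or beside genes of known function. CR45018, on the same strand as the inositol trisphosphate kinase gene IP3K2, fell from 22.6, 18.1 and 14.5 CPM to 9.23, 9.32 and 8.30 CPM in WT (log2 fold change −1.03, SE 0.16, adjusted p = 0.000153) and from 21.8, 20.4 and 17.7 CPM to 11.3, 12.7 and 11.8 CPM in the hypomorph (−0.74, SE 0.15, adjusted p = 0.00155). IP3K2 fell as well, by 0.74 and 0.56 on the log2 scale, so the values of the member and of the gene around it cannot be told apart with these counts. CR45197, on the strand of the kinase gene sgg, was at 121, 111 and 107 CPM in WT and 124, 83.9 and 105 CPM in the hypomorph at 18°C, and at 80.4, 71.7 and 75.2 CPM against 69.2, 79.8 and 68.1 CPM at 29°C. It fell by 0.58 in WT (SE 0.12, adjusted p = 0.00115) and by 0.52 in the hypomorph (SE 0.11, adjusted p = 0.00248). It had 56.3 to 75.4 counts per 100 counts of sgg, with a widest gap of 0.21 between their log2 fold changes. The values of CR45197 and of sgg cannot be told apart with these counts either. CR31451, named mimi in the current annotation, was at 121, 117 and 119 CPM in the WT libraries at 18°C and at 100, 96.0 and 102 CPM at 29°C, a small but separate fall (−0.26, SE 0.06, adjusted p = 0.00554).

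CR45045 was higher at 29°C in WT, but the libraries were far apart. It was at 2.19, 3.10 and 3.49 CPM at 18°C and at 19.9, 39.1 and 12.5 CPM at 29°C in WT (log2 fold change 2.98, SE 0.73), while the hypomorph was at 2.15, 2.73 and 1.84 CPM at 18°C and at 0.805, 15.4 and 1.39 CPM at 29°C (1.44). Both 18°C groups were under 5 CPM, so these are descriptions. Replicate 2 was the highest library at 29°C in both strains, and the same libraries had the highest summed gut markers of their groups, 473.7 CPM in WT and 138 CPM in the hypomorph against 5.65 to 36.1 CPM in the other 29°C libraries. The part of gut RNA in the level of CR45045 was not tested.

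Of the 13 members that differed between the strains at both temperatures, CR45046 and CR43836 shared their counts with another gene on their strand and are described further on with the differences of response. CR43051 had no such partner. This gene, now listed as the protein coding gene CG43051, was at 72.5, 81.0 and 78.7 CPM in WT and 30.8, 43.6 and 33.3 CPM in the hypomorph at 18°C, and at 126, 115 and 102 CPM against 58.5, 50.8 and 52.7 CPM at 29°C. The 4 groups did not overlap along either axis. It was lower in the hypomorph by similar amounts at 18°C (−1.10, SE 0.12, adjusted p = 4.80e-06) and at 29°C (−1.08, SE 0.11, adjusted p = 4.65e-06) and rose with temperature by 0.56 in WT (SE 0.11, adjusted p = 0.00119) and by 0.58 in the hypomorph (SE 0.12, adjusted p = 0.00138). It lies opposite to bun, a gene of the TSC-22 family, whose level was 226 to 241.1 CPM in the 4 groups and was not called. The small nucleolar RNA listed inside it, snoRNA:CG43051-a, had group means of 20.4, 8.59, 29.2 and 15.6 CPM in the same order of groups.

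The other members lower in the hypomorph were less abundant. CR43411 was at 9.64, 14.2 and 14.7 CPM in WT and 3.90, 3.23 and 5.28 CPM in the hypomorph at 18°C, and at 21.6, 17.0 and 15.9 CPM against 6.71, 9.52 and 10.4 CPM at 29°C. It lies opposite to osp and beside Adh, the alcohol dehydrogenase gene, and was lower in the hypomorph at 29°C (log2 fold change −1.02, SE 0.21, adjusted p = 0.00189), while osp was not called. At 18°C, where the hypomorph was under 5 CPM, its log2 fold change was −1.64 (SE 0.24), a description. CR46195, an antisense RNA gene opposite to Trf4-1, fell by 0.88 at 29°C on the log2 scale and was at −1.27 at 18°C with its hypomorph group under 5 CPM, and CR43452 fell by 0.98 and by 0.82. CR44133, on the strand of srp, a GATA factor of fat body and blood cells, fell by 1.04 at 18°C.

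Among the members higher in the hypomorph, CR44922, an lncRNA gene on 3R, was at 15.1, 11.3 and 15.0 CPM in WT and 26.1, 25.7 and 21.5 CPM in the hypomorph at 18°C, and at 16.9, 15.6 and 16.7 CPM against 25.8, 27.4 and 24.1 CPM at 29°C. It rose by 0.82 (SE 0.13, adjusted p = 0.000185) and by 0.65 (SE 0.12, adjusted p = 0.00110), and its temperature groups overlapped within a strain. CR45180 and CR43480 lie in pericentromeric heterochromatin and were under 5 CPM in at least 1 WT group. CR45180, on 3LHet, was at 1.53, 2.74 and 3.05 CPM against 5.07, 6.21 and 6.51 CPM at 18°C and at 3.28, 2.61 and 5.29 CPM against 7.25, 8.25 and 8.32 CPM at 29°C (log2 fold changes 1.25 and 1.07). The hypomorph groups brought it in, so these are descriptions. CR43480, on XHet, was at 3.29, 6.75 and 5.38 CPM against 8.97, 8.57 and 7.86 CPM at 18°C and at 2.35, 3.15 and 4.57 CPM against 8.86, 8.48 and 7.76 CPM at 29°C. Its log2 fold change of 1.29 at 29°C (SE 0.25) is a description, and the call at 18°C (0.69, adjusted p = 0.0494) was lost when any of 9 libraries was left out, with values of 0.48 to 0.75. CG17159, on the strand opposite to CR43480, rose in the hypomorph as well (0.79 and 1.14).

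CR46064, an lncRNA gene on 2R, was at 10.3, 7.66 and 10.5 CPM in WT and 14.6, 14.9 and 12.2 CPM in the hypomorph at 18°C, and at 7.97, 10.3 and 12.03 CPM against 18.9, 18.8 and 23.3 CPM at 29°C. It was higher in every hypomorph library at both temperatures. The rise was 1.00 at 29°C (SE 0.17, adjusted p = 0.000417) and 0.55 at 18°C (adjusted p = 0.0342), and the latter call was lost without WT replicate 2 at 18°C (0.41), the unnumbered 18°C hypomorph library (0.50) or its replicate 2 (0.49). CR42862, on 3L, was at 336, 349 and 328 CPM in WT and 526, 390 and 397 CPM in the hypomorph at 18°C, and at 350, 298 and 333 CPM against 338, 321 and 382 CPM at 29°C. Its rise in the hypomorph at 18°C (0.37, SE 0.10, adjusted p = 0.0139) rested on the unnumbered library, without which it was 0.21 and not called, and it was also not called without WT replicate 3 at 18°C (0.34).

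CR45997 and CR45115 reached 5 CPM in 1 group only, so all their folds are given without a test. CR45997, an lncRNA gene within mbl, which encodes the splicing factor muscleblind, was at 0.658, 0.730 and 1.31 CPM in WT and 5.07, 4.97 and 3.07 CPM in the hypomorph at 18°C, and at 2.81, 6.03 and 4.69 CPM against 39.7, 54.9 and 38.3 CPM at 29°C. Its highest library outside the 29°C hypomorph was at 6.03 CPM and its lowest within that group at 38.3 CPM. The mean was 5.02-fold higher at 29°C in WT, 10.1-fold higher at 29°C in the hypomorph, 4.86-fold higher in the hypomorph at 18°C and 9.82-fold higher at 29°C. The counts of CR45997 ran from 0.866 to 82.1 per 100 counts of mbl, so the counts of these rows did not move together. The rows most like it over the 12 libraries, picked as the highest correlations in the whole table, were GSS (r = 0.982), trpl, a cation channel of photoreceptors (r = 0.974), and His2Av (r = 0.967). The summed photoreceptor markers were at 5815 to 6479 CPM in WT and 22175 to 22622 CPM in the hypomorph at 18°C. At 29°C they were at 9805 to 10743 against 30269.9 to 32347 CPM. Their part in the level of CR45997 was not tested.

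CR45115, an lncRNA gene on 3L, had the opposite pattern between the strains. It was at 3.73, 3.28 and 5.24 CPM in WT and 0.390, 0.497 and 0.614 CPM in the hypomorph at 18°C, and at 17.4, 15.6 and 16.7 CPM against 3.22, 3.95 and 3.47 CPM at 29°C. The mean was 8.16-fold lower in the hypomorph at 18°C and 4.67-fold lower at 29°C, and 4.06-fold and 7.09-fold higher at 29°C in WT and in the hypomorph. The hypomorph at 29°C and WT at 18°C overlapped. The rows most like it were Ahcy13, which encodes adenosylhomocysteinase (r = 0.994), Cyp4d2 (r = 0.986) and CG33178 (r = 0.986).

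**Figure D5:**
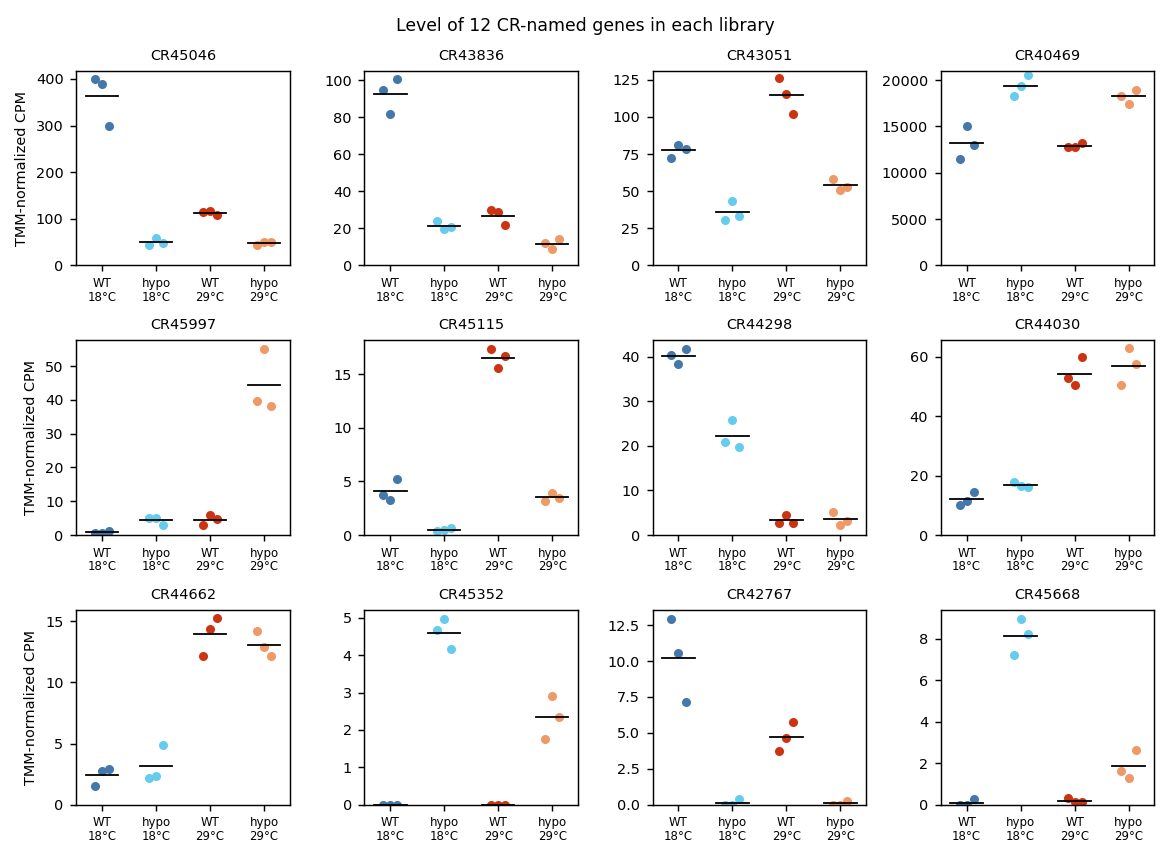
TMM-normalized CPM of 12 CR-named genes in each of the 12 libraries, with 1 panel per gene, points for the 3 libraries of each group and a line at the group mean. CR45046, CR43836, CR43051 and CR42767 are lower in the hypomorph, CR40469, CR45997, CR45352 and CR45668 higher, and the 29°C groups of CR44298 lie below the 18°C groups.

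The response to temperature differed between the strains for 3 of the 65 members, or 4.62%, against 2.32% of all rows tested and 2.7% of the rows at that level, and by the study's criterion for 2, beside 2.52% of all rows. CR45046, listed as antisense RNA, was at 399.8, 389.4 and 298.1 CPM in WT and 44.5, 59.2 and 48.1 CPM in the hypomorph at 18°C, and at 115, 116 and 107 CPM against 43.6, 49.2 and 49.4 CPM at 29°C. It fell with temperature in WT (−1.68, SE 0.11, adjusted p = 3.34e-08) but not detectably in the hypomorph (−0.10, adjusted p = 0.566), and the difference of the responses was 1.58 (SE 0.16, adjusted p = 7.10e-05). In the hypomorph it was 7.17-fold lower at 18°C (−2.83, SE 0.12, adjusted p = 2.68e-10) and also lower at 29°C (−1.25, SE 0.12, adjusted p = 1.15e-06). Its counts followed those of fit, which encodes a secreted peptide of the head fat body and is on the same strand, with group means of 1290, 181.6, 405.5 and 170.1 CPM for WT and hypomorph at 18°C and WT and hypomorph at 29°C. Of the 6 head fat body markers, 5 fell with temperature in WT and 4 rose in the hypomorph, 6 were lower in the hypomorph at 18°C, and the part of that tissue in these values was not tested. The gene fit is expressed mainly in females, and the labels do not give the sex of the heads.

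CR43836, on X, shared its counts with CG10962 and was at 94.7, 82.1 and 101 CPM in WT and 24.2, 19.5 and 20.6 CPM in the hypomorph at 18°C, and at 29.9, 28.9 and 21.6 CPM against 12.2, 8.83 and 14.6 CPM at 29°C. It fell with temperature in WT (−1.79, SE 0.15, adjusted p = 3.24e-07) and in the hypomorph (−0.85, SE 0.17, adjusted p = 0.00116) and was lower in the hypomorph at 18°C (−2.12, SE 0.15, adjusted p = 5.59e-08) and at 29°C (−1.18, SE 0.17, adjusted p = 8.30e-05). The difference of the responses (0.94, SE 0.22, adjusted p = 0.0367) was lost when any of 7 libraries was left out, with values of 0.77 to 0.92. On the opposite strand lies rdgA, the diacylglycerol kinase of photoreceptors, which rose in the hypomorph by 0.71 and by 0.79.

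CR44832, an lncRNA gene on X that overlaps no other gene, was the member whose difference of responses did not rest on shared counts. It was at 40.3, 37.8 and 39.7 CPM in WT and 58.3, 56.8 and 54.3 CPM in the hypomorph at 18°C, and at 61.3, 61.3 and 62.8 CPM against 61.3, 61.6 and 65.2 CPM at 29°C. The WT libraries at 18°C were the lowest, the hypomorph libraries at 18°C lay between them and all 29°C libraries, and the strains overlapped at 29°C. It rose with temperature in WT (0.65, SE 0.07, adjusted p = 3.61e-06) while the hypomorph differed by 0.15 (adjusted p = 0.0961), and the difference of the responses was −0.50 (SE 0.10, adjusted p = 0.00946). In the 8 numbered libraries alone that call was lost, with a replicate block (−0.49, adjusted p = 0.187) and without it (−0.49, adjusted p = 0.136), while that of CR45046 was kept. With members that share their counts left out, an alternative chosen after seeing the data, CR44832 was the 1 member called. That rule removes CR45046 and CR43836 themselves, so it cannot show whether their calls hold.

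Of the 17 antisense RNA members with a mean of at least 5 CPM, 4 rose and 4 fell with temperature in WT and 3 rose and 2 fell in the hypomorph. Between the strains 2 rose and 2 fell at 18°C and 1 rose and 2 fell at 29°C. In the order of the 4 comparisons these were 47.1%, 29.4%, 23.5% and 17.6% of the 17, beside 36.7%, 35.7%, 29.5% and 21.1% of all rows at that level. Of the 44 lncRNA members, 11 rose and 9 fell with temperature in WT and 13 rose and 8 fell in the hypomorph, and 10 rose and 6 fell in the hypomorph at 18°C and 7 rose and 6 fell at 29°C, or 45.5%, 47.7%, 36.4% and 29.5% beside the same background. For the 26 pairs of a member and a gene on the opposite strand, the member was called in 13, 12, 9 and 8 pairs. Both were called for temperature in 5 pairs in WT, 4 of them in opposite directions, and in 4 pairs in the hypomorph, all 4 in opposite directions. Between the strains both were called in 3 pairs at 18°C, 1 in opposite directions, and in 4 pairs at 29°C, 1 in opposite directions. These pairs are few beside a background in which 33.4%, 32.2%, 26.2% and 19.0% of all rows were called, and nothing is read from their directions. An example is CR44097 with Hsp68, which encodes a heat-induced chaperone. CR44097 fell by 0.49 in WT and by 0.87 in the hypomorph, and Hsp68 rose by 1.29 and by 0.99, but CR44097 had the same counts as CG6000. For the 22 pairs on the same strand, the member was called in 10, 9, 8 and 7 pairs and both were called in 7, 7, 5 and 3, and all but 1 of these moved in the same direction. The 22 include the 5 pairs with log2 fold changes within 0.05 of each other, and others may share reads too. Their direction is then shared by construction, so nothing is read from this count. For the nearest genes that do not overlap, 79 pairs with 55 members, the member was called in 36, 31, 23 and 20 pairs and both were called in 15, 11, 6 and 6, of which 6, 8, 3 and 4 moved in the same direction.

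Of the 65 members, 8 have a microRNA precursor listed within them on their strand, and 4 of these are also named as its primary transcript. CR46006, named as that of mir-276a and mir-276b, had group means of 15.8, 16.8, 15.0 and 16.3 CPM for WT and hypomorph at 18°C and WT and hypomorph at 29°C, and was called in no comparison. CR43459, the host of mir-277 and mir-34, was at 4.20, 5.64, 6.07 and 6.85 CPM and was called in none. CR43650, the host of mir-8, was at 6.78, 5.66, 7.75 and 9.78 CPM and rose with temperature in the hypomorph (0.79, SE 0.23, adjusted p = 0.0154). CR31044, the host of mir-279 and mir-996, was at 8.47, 5.25, 4.68 and 3.28 CPM, with overlapping temperature groups in WT. The other 4 are CR31451 (mir-9381), CR43836 (mir-31b), CR45347 (mir-4973) and CR46194 (mir-281-1 and mir-281-2). These are levels of polyadenylated host RNA and not of mature microRNAs.

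Among the 18 members under 5 CPM over all libraries, several were at or near 0 in 1 strain, and their level in the other strain is what brought them in. CR45352, on 2L, had no count in any of the 6 WT libraries and was at 4.68, 4.97 and 4.17 CPM in the hypomorph at 18°C and 1.74, 2.90 and 2.36 CPM at 29°C. Against a floor of 3 counts per library, the hypomorph level was at least 8.42-fold higher at 18°C and at least 5.64-fold higher at 29°C. CR45668, on X, was at 0, 0 and 0.291 CPM in WT and 7.22, 8.95 and 8.22 CPM in the hypomorph at 18°C, and at 0.313, 0.137 and 0.120 CPM against 1.61, 1.28 and 2.63 CPM at 29°C. Against the same floor the hypomorph was at least 14.9-fold and at least 4.45-fold higher. CR42767, on X, had the opposite pattern, with 12.9, 10.6 and 7.13 CPM in WT and 0, 0 and 0.368 CPM in the hypomorph at 18°C and 3.75, 4.66 and 5.77 CPM against 0, 0 and 0.277 CPM at 29°C, at least 23.1-fold and at least 12.2-fold lower in the hypomorph. These floors cover counting error only.

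The other low members varied with temperature or with single libraries. CR45647, on 3R, was at 1.53, 2.19 and 1.60 CPM in WT and 2.73, 2.24 and 2.33 CPM in the hypomorph at 18°C, and at 10.9, 11.7 and 7.70 CPM against 6.04, 4.88 and 6.52 CPM at 29°C. CR44127, on 2R, was at 5.26, 2.37 and 3.49 CPM in WT and 4.29, 6.59 and 3.68 CPM in the hypomorph at 18°C, and at 1.09, 1.10 and 1.08 CPM against 0.671, 0.465 and 0.416 CPM at 29°C. Both were thus separate between the temperatures in each strain. CR44388 was at 2.35, 15.6 and 0.962 CPM in WT and 0.268, 2.55 and 0 CPM in the hypomorph at 29°C, and CR44404, the gene IBIN, at 2.19, 8.91 and 11.3 CPM against 0.268, 19.5 and 0.693 CPM. In CR44388 the highest library of each strain was again replicate 2, as it was for CR45045. The remaining 11 low members had group means of 1.14 to 7.19 CPM.

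Other noncoding RNA genes were counted beside the members. Of 345 rows for roX RNAs, small nuclear and nucleolar RNAs, snoRNA host genes, microRNA precursors and further named noncoding RNAs, 65 were tested. Of these, 19 rose and 1 fell with temperature in WT and 18 rose and 3 fell in the hypomorph, and 7 rose and 6 fell in the hypomorph at 18°C and 10 rose and 2 fell at 29°C. These were 30.8%, 32.3%, 20.0% and 18.5% of the 65, beside 33.4%, 32.2%, 26.2% and 19.0% of all rows. By direction, the shares of all rows were 16.1% up and 17.3% down, 15.6% and 16.6%, 11.6% and 14.6%, and 8.81% and 10.2%. The split by direction was not tested. The libraries hold polyadenylated RNA, so these counts need not be levels of mature small RNAs. Over all 228 CR-named rows tested the counts were 40 up and 31 down, 38 and 33, 20 and 24, and 19 and 18 in the same order. The dosage compensation RNA roX2, which is made in males, had group means of 4.89, 14.6, 28.6 and 44.6 CPM for WT and hypomorph at 18°C and WT and hypomorph at 29°C, and roX1 of 492.2, 803, 474.2 and 382.4 CPM.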

How the data were processed

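The deposited table gives raw counts per gene, which the authors obtained by TopHat alignment to dm3 and counting in ESAT. How ESAT used strand is not given in the sources used here. The table holds 4 more columns, of no listed sample, and these were left out. Columns were matched to samples by their names, and 1 column per group has no replicate number.

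Counts were tested with edgeR 4.0.16 in R 4.3.3. Rows were kept by filterByExpr (minimum count 10), which left 9553 of the 14611 rows with a count. TMM scaling and a quasi-likelihood model with 4 group means were applied to all 12 libraries, and p-values were adjusted by Benjamini-Hochberg over the rows tested, with a call at an adjusted p under 0.05. The biological coefficient of variation was 12.9%. Libraries of a group differed by more than sampling noise (chi-square per degree of freedom 3.25 to 8.07), so none was counted as a copy. The fit was also run on simulated counts with a common spread for all rows and changes of a single size. That run does not cover the spread of single genes or smaller changes. Summed levels were compared by a two-sided exact permutation test, for which p = 0.1 is the smallest value with 3 libraries against 3.

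The members, the gene lists and the tests were chosen with earlier results of these data known. Named were the 8 members with the most counts and, for each comparison, the 4 largest rises and the 4 largest falls among called members averaging 5 CPM or more whose groups did not overlap, members under that level by their ratio between groups, rows next to the limit, overlapping and neighbouring genes, and the rows most alike. Members named outside this rule, among them those at 0.98 to 1.71 on the log2 scale in the account of temperature and the microRNA hosts, were chosen after their values were seen. A fold against a group with 3 counts or fewer in every library is given as a bound at 3 counts per library. PCR copies are not independent molecules, so such bounds cover counting error only. Release 6 annotation was used for names, gene types and neighbours.

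Alternatives were DESeq2 1.42.0, its size factors, scaling by total counts, other count filters, a fit of the compared groups, a replicate block, each library left out, the study's criterion and other limits on CPM. Tables and plots were made with Python 3.11.15, numpy 2.4.6, pandas 2.3.3 and matplotlib 3.10.9.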

Additional observations from a re-analysis of the deposited data

Results flagged for a closer look

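The response to temperature of 3 members differed between the strains by the test of the difference itself, with the hypomorph response minus the WT response on the log2 scale at 1.58 for CR45046, 0.94 for CR43836 and −0.50 for CR44832. The counts of CR45046 and CR43836 run parallel to those of fit and CG10962 on the same strand, and those of CR44832 to no overlapping gene. For CR45647 all 3 hypomorph libraries were above all 3 WT libraries at 18°C and below all 3 at 29°C. Its log2 fold change between the strains at 18°C in the edgeR fit was 0.44. These differences are descriptions with no test.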

How the results depend on the processing

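The counts of called members moved mainly with the rule for members and calls. With the study's criterion they were 14, 12, 9 and 9 in place of 30, 27, 22 and 18 for temperature in WT and in the hypomorph and for strain at 18°C and 29°C. With a mean of 10 CPM or more they were 18 for temperature in WT and 11 for strain at 29°C, with 2 CPM or more 48 and 44 for temperature, and over all CR-named rows tested 71, 71, 44 and 37. The number of members was 47 at 10 CPM and 180 at 2 CPM. Leaving out 1 library gave 24 to 30, 22 to 28, 15 to 21 and 15 to 19 calls, and 2 to 4 in place of 3 for the difference of responses. No pairing by replicate number was seen in the mean correlation of deviations (0.00386 for the same number and 0.00568 for others). A mean over pairs of libraries cannot decide whether some libraries of the same number vary together. A replicate block in the 8 numbered libraries gave 25, 19, 13 and 14 calls, and 1 for the difference of responses, CR45046. The same libraries without the block also gave 1, again CR45046. Leaving out members that share counts removed CR45046 and CR43836 themselves and left CR44832. Scaled by total counts, the difference of responses was called for 1 member up and 1 down.

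For Adar at 18°C the log2 fold change was −0.22 by total counts and −0.42 in a fit of the compared groups, neither called, and −0.62 to −0.25 with 1 library left out. The ratio of summed levels was 0.879 for temperature in the hypomorph and 1.53 for strain at 18°C by total counts. Without CR40469 it was 1.25 and 1.29 for temperature and 0.930 and 0.961 for strain, or 1.21, 1.14, 1.06 and 0.998 in the same order by total counts, and without CR42491 as well 0.872 and 0.945 for strain, choices made after seeing the data. With 1 library left out it was 1.00 to 1.11, 0.977 to 1.03, 1.28 to 1.42 and 1.26 to 1.30. Of 46 called and tested values of 19 named genes, 32 kept direction and call under every alternative, 14 lost the call under some, 10 of them with 1 library left out, and none reversed. None of 20 further values of named genes, given without a test, reversed. A fit of the compared groups could not be made for the difference of responses. Of the 65 members, 60 had at least 10 counts in every library, and how depth limits the others was not tested.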
